A study of Mus musculus with 10 samples.

Results

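The genes described here encode the protein factors that carry out translation and the enzymes that load transfer RNAs. They were measured in the brain of Cin85-/- mice. The members are all array probes annotated with a single gene symbol of an Eif, Eef1 or Eef2 name, Etf1, Gspt1, Gspt2 or a one-letter aminoacyl-tRNA synthetase name. The rule found 100 of the 20355 probes, for 67 of the 9930 named genes: 36 initiation genes, 8 elongation genes, 2 termination genes and 21 tRNA synthetase genes. Of these, 62 genes were measured on both arrays of at least 4 mice and could be tested.

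Total RNA from the brains of 5 Cin85-/- males, aged 15 weeks, was hybridised on 10 arrays with a Cy3 and a Cy5 channel against a pool of brain RNA from wildtype males of the same age. Cin85 is an adaptor protein of receptor uptake, encoded by Sh3kbp1. Each mouse gave 2 arrays, with its RNA in Cy5 on the first and in Cy3 on the second. The pool held 5 mice by the listed animals and 6 by the labelling protocol. The labels do not say how the mutation was made or explain the abbreviation Kdn in the source name of the mutant RNA. The values are log2 ratios, which carry no expression level, so the tissue could not be checked by the presence of markers.

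Translation starts when eIF2 brings the initiator tRNA to the small ribosomal subunit, eIF3 holds the complex together and the eIF4 factors bind the cap of the mRNA. eIF2B recharges eIF2 with GTP, and kinases that phosphorylate eIF2 slow initiation. Elongation factors then deliver charged tRNAs and move the ribosome along, release factors end the chain, and aminoacyl-tRNA synthetases attach each amino acid to its tRNA. Mutations in eIF2B subunits cause a white matter disease of the brain, and mutations in several synthetases cause peripheral neuropathy.

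The arrays held between 16816 and 19424 values each. The array of mouse 3 with the mutant in Cy3 stood apart, with the fewest values, 264 ratios at an extreme value that repeats within an array (65 to 117 on the others), and an interquartile range of 1.43 (0.453 to 0.994 on the others). These capped ratios were positive on all 5 arrays with the mutant in Cy5 and negative on all 5 with it in Cy3. The sources used here give neither the numerator nor whether the Cy3 arrays had been turned to the direction of the Cy5 arrays. A pair of quantities is therefore given per mouse. The ratio as deposited is the mean of its arrays. The turned ratio changes the sign of the Cy3 array before averaging. If the authors had turned the swapped arrays, the first measures mutant against pool and the second measures dye bias. If they had not, the roles are exchanged. No sign below settles which sample was higher. The Sh3kbp1 probe with 10 values gave 0.008 ± 0.139 (SD, n = 5) as deposited and 0.12 ± 0.089 (SD, n = 5) turned, with adjusted p of 0.989 and 0.442 by limma. Whether this probe lies in a part of the gene changed by the mutation is not given, so it does not check the labels.

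Across the 100 member probes, arrays of the same orientation resembled each other, with a median Spearman rho of 0.344 between Cy5 arrays and 0.284 between Cy3 arrays. Arrays of opposite orientation ran against each other, with a median rho of -0.304, and the arrays of 1 mouse gave the same median of -0.304. All 20355 probes gave 0.378, 0.244, -0.298 and -0.330. These are correlations across probes, which share each array's labelling and normalization.

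No member gene passed an adjusted p of 0.05 against the pool, with the ratios as deposited or turned. The test was limma on mouse values with Benjamini-Hochberg adjustment over 8711 genes, and 0% of all genes passed in either reading. The smallest adjusted p among members was 0.918 as deposited and 0.0977 turned. At an unadjusted p under 0.05, 3 of 62 member genes appeared as deposited, all negative, against 3.52% of all genes. They were Eif3j1, Rars and Tars, and 1.66% of all genes were negative at that threshold. Without mouse 1 the count was 1. A fit of all 10 arrays had the mouse as a random block and a dye covariate. As deposited, 0 member genes passed in it, against 0% of all genes, and 4 had an unadjusted p under 0.05. The share of all genes is not given here for that last count or for the count without mouse 1. In the turned ratio 11 of 62 had an unadjusted p under 0.05, against 26.2% of all genes. The 95% interval lay within 1.5-fold for 49 of 62 member genes as deposited (79%, against 65.6% of all genes), and within 2-fold for 59 (95.2%, against 88.5%). In the turned ratio the interval lay within 1.5-fold for 39 (62.9%, against 46.9%) and within 2-fold for 55 (88.7%, against 83.3%). The number of arrays limits the precision. All wildtype RNA came as 1 pool, and variation among wildtype animals does not enter these tests. In whole tissue, fewer cells of a type and less RNA per cell cannot be told apart.

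**Figure D1:**
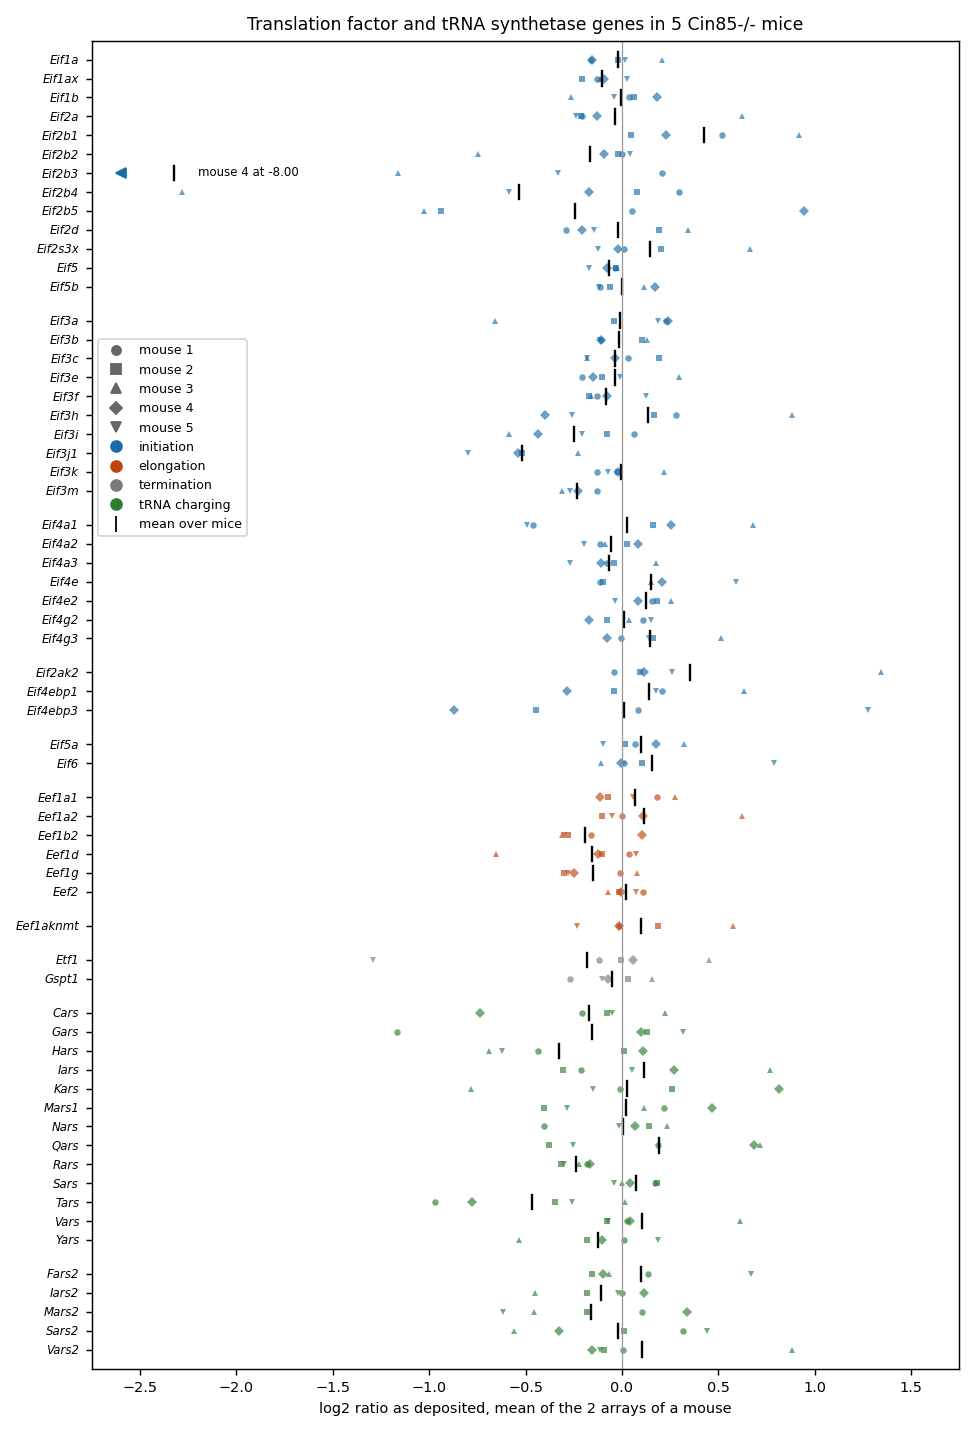
Log2 ratio as deposited of the 62 tested genes (rows, by role) in each of 5 mice. Each symbol is the mean of the 2 arrays of a mouse and the black bar is the mean over mice; the intervals of 49 genes lie within 1.5-fold, Rars and Eif5 are negative in all 5 mice, and mouse 4 lies at -8.00 for Eif2b3, outside the axis.

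As deposited, 26 member genes had a mean above 0 and 36 below, and their median was -0.020 against -0.003 for all genes. The median in single mice was -0.002, -0.040, 0.095, -0.053 and -0.084 in mice 1 to 5. Initiation genes had a median of -0.018 (13 positive, 22 negative), elongation genes 0.019 (4 and 3) and synthetase genes -0.009 (9 and 9). The largest distance between these group medians was smaller than the SD of the medians of single mice, which was 0.086 for initiation and 0.067 for elongation. That SD describes single mice and does not measure the precision of a median over mouse means, so the distance was not tested. In the turned ratio the groups lay further apart, with medians of 0.039, -0.176 and -0.087, while that of all genes was -0.051. Of all 8711 genes, 4301 had a mean above 0 and 4410 below as deposited, and 3872 and 4839 when turned. Over the Cy5 arrays alone, elongation genes had a median of -0.33, synthetase genes -0.15 and initiation genes 0.022. Over the Cy3 arrays alone the medians were 0.27, 0.090 and -0.11. All 3 group medians thus had opposite signs in the orientations, and the distance was widest for elongation. More genes enter these medians, since a single array per mouse sufficed.

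Member probes were measured slightly more often than other named probes. All 10 arrays gave a value for 74 of 100 member probes, against 67% of the 13930 other named probes. The SD over the arrays had a median of 0.508 for member probes and 0.621 for the others. Core elongation factors were the most complete, with 12 of 13 probes on all arrays and a median SD of 0.395. eIF3 and eIF4 probes had medians of 0.364 and 0.354. Probes of eIF2B had a median of 1.64, and 2 of 5 were complete. The array signal was not analysed here, so the part of probe brightness in these differences was not tested.

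Genes named Eif1, Eif2 or Eif5, other than the eIF2 kinase and Eif5a, were grouped under start codon selection and the ternary complex. They lay mostly below 0 as deposited and mostly above 0 when turned. The group takes in the 5 eIF2B subunits described below and, by name, Eif2a and Eif2d. Of 13 genes, 11 were negative and 2 positive as deposited, with a median of -0.034, where 4410 of all 8711 genes were negative. The eIF2B subunits gave 4 of the 11. Eif5b at -0.001 and Eif1b at -0.004 were also among the 11, next to 0. Without centring, 3 of the 62 tested member genes changed sign, so such counts depend on the centring. Turned, 9 of the 13 genes lay above 0, 4 of them eIF2B subunits, and 4 genes lay below. The turned median of the group was 0.072. Eif2s3x, the X-linked gene of the gamma subunit of eIF2, gave 0.15 ± 0.31 (SD, n = 5) as deposited and 0.46 ± 0.26 (SD, n = 5) turned, with an adjusted p of 0.11 by limma for the latter. Eif1a, which helps the small subunit scan for the start codon, had values of 0.12, 0.37, 0.46, 0.27 and 0.26 with the mutant in Cy5 for mice 1 to 5. On the Cy3 arrays it had -0.44, -0.42, -0.046, -0.59 and -0.22. Every Cy5 value was positive and every Cy3 value negative. Its mean was therefore -0.023 ± 0.151 as deposited and 0.32 ± 0.088 turned (SD, n = 5 each). Eif5, the GTPase activator of eIF2, was negative in all 5 mice as deposited, at -0.069 ± 0.061 (SD, n = 5). Of 55 member genes with a value for every mouse, 2 kept 1 sign throughout (3.64%), against 6.86% of all genes. Both, Eif5 and Rars, were negative, as were 3.55% of all genes. The turned ratio had the same sign in all 5 mice for 14 of 55 (25.5%), against 28.3% of all genes.

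The eIF2B subunits, which form the exchange factor of eIF2, varied widely between mice, with a median SD of 0.93 against 0.286 over all member genes. Each was measured by 1 probe. The means as deposited were 0.43 for Eif2b1, -0.17 for Eif2b2, -2.32 for Eif2b3, -0.53 for Eif2b4 and -0.24 for Eif2b5, with SDs of 0.38, 0.33, 3.83, 1.03 and 0.93. Eif2b1, Eif2b3 and Eif2b5 lacked 1 array each, which left 4 mice. The Eif2b3 mean rests on the Cy3 array of mouse 4, with a capped ratio of -17.40, and without mouse 4 it was -0.43. In Eif2b4 the Cy3 array of mouse 3 gave -4.53 while the other Cy3 arrays lay between 0.54 and 0.69, and without mouse 3 the mean was -0.095. For Eif2b1 the arrays of mouse 4 gave 4.05 and -3.60. The 95% interval lay within 2-fold for 2 of the 5 subunits, and for the other 3 it did not exclude a change of that size. When turned, 4 of the 5 lay above 0, their median was 0.28, and the interval again lay within 2-fold for 2.

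eIF3, the scaffold of the initiation complex, had 9 negative genes and 1 positive among 10 tested as deposited, where 4410 of all 8711 genes were negative. Some of the 9 lay close to 0, such as Eif3k at -0.005, Eif3a at -0.009 and Eif3c at -0.034. Without centring Eif3k was 0.002. After scaling between arrays Eif3a was 0.072 and Eif3c 0.021, so the split depends on the processing. The eIF3 median was -0.034, and it was negative in each mouse, from -0.17 to -0.040. When turned, 6 genes lay above 0 and 4 below, the median was 0.055, and the mouse medians lay on both sides of 0, from -0.042 to 0.21. Eif3j1, which encodes a loosely bound subunit, gave -0.72, 0.025, -0.74 and -0.51 on the Cy5 arrays of mice 2 to 5, and -0.31, -0.48, -0.34 and -1.09 on their Cy3 arrays. Only 1 of these 8 values was above 0. The mean was -0.52 ± 0.23 (SD, n = 4), with an unadjusted p of 0.00935 and an adjusted p of 0.918 by limma, and the single array of mouse 1 gave -0.016. With that array in the fit of all 10 arrays the value was -0.47. Eif3m, a further subunit, was less variable, at -0.23 ± 0.077 (SD, n = 4), with limma's adjusted p also 0.918. Eif3i, a subunit with a beta-propeller fold, had the largest turned value among eIF3 genes. Its Cy5 values were 0.35, 0.52, 0.48, 0.63 and 0.39, and its Cy3 values were -0.23, -0.68, -1.65, -1.50 and -0.81. The turned mean was 0.72 ± 0.33 (SD, n = 5), with limma's adjusted p at 0.0977, and the mean as deposited was -0.25 ± 0.26 (SD, n = 5). The remaining eIF3 means lay between -0.082 for Eif3f and 0.13 for Eif3h.

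The cap-binding and helicase genes of the eIF4 family had 5 positive and 2 negative means, from -0.065 to 0.15. All 7 had intervals within 1.5-fold as deposited, and 5 did when turned, where 3 means were positive and 4 negative. Eif4e, the cap-binding protein, averaged 0.15 ± 0.29 (SD, n = 5), but its 3 tested probes gave -0.25, 0.11 and 0.75. Eif4e2, a cap-binding paralogue linked to repression, gave 0.13 ± 0.11 (SD, n = 5) as deposited and -0.48 ± 0.34 (SD, n = 5) turned, with an adjusted p of 0.123 by limma. Eif4a1 and Eif4a2, the RNA helicases, had 0.028 ± 0.502 and -0.059 ± 0.112 (SD, n = 5 each). Eif4g2, a scaffold of cap-independent initiation, had 0.010 ± 0.132, and Eif4g3 had 0.15 ± 0.23 (SD, n = 5 each).

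Of the regulators, Eif2ak2 encodes the eIF2 kinase PKR, which is activated by double-stranded RNA. Its mouse values were -0.043, 0.095, 1.34, 0.11 and 0.26, so mouse 3 lay far above the others. The mean was 0.35 ± 0.56 (SD, n = 5), and 0.11 without mouse 3. Turned, it was -0.33 ± 0.50 (SD, n = 5). Eif4ebp1, an inhibitor that sequesters eIF4E, gave 0.14 ± 0.34 (SD, n = 5), and 0.014 without mouse 3. Its turned mean was 0.38 ± 0.52 (SD, n = 5). Eif4ebp3, a related inhibitor, ranged from -0.87 to 1.27 over 4 mice. Eif5a, which helps ribosomes through difficult sequences, had 0.097 ± 0.159, and Eif6, which keeps the large subunit from joining early, had 0.16 ± 0.36 (SD, n = 5 each). The Eif6 mean was 0.787 in mouse 5 and between -0.111 and 0.106 in the others.

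**Figure D2:**
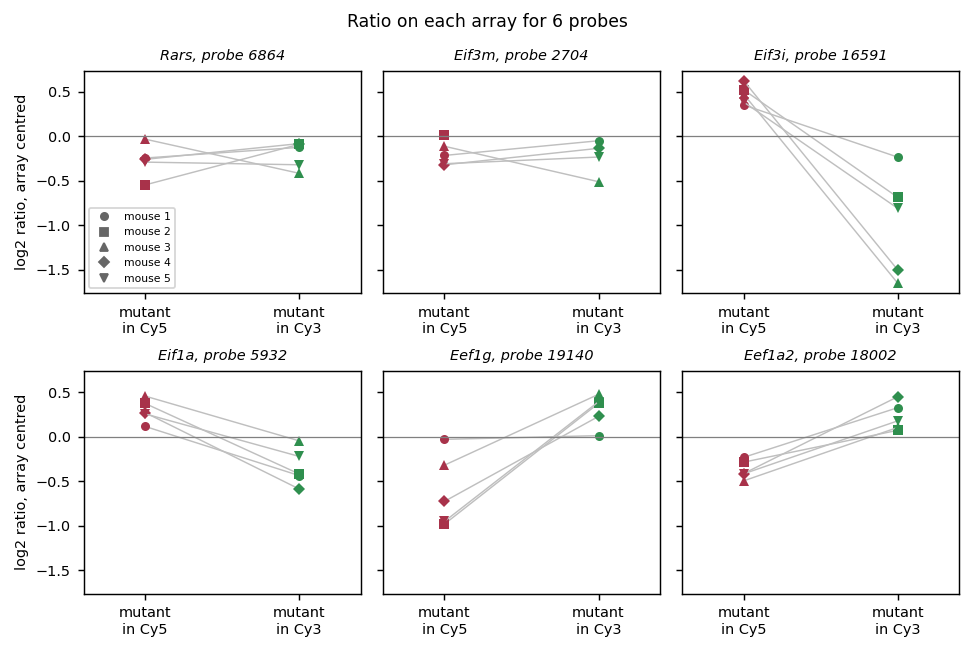
Centred log2 ratio of 6 member probes on each array, with the mutant in Cy5 (left in each panel) or Cy3 (right); lines join the arrays of a mouse. Rars was negative on all 10 arrays and Eif3m on 8 of 9. The probes shown of Eif3i, Eif1a, Eef1g and Eef1a2 changed sign with the dye in every mouse. Eef1g of mouse 1 lay close to 0 on both arrays. The other Eef1a2 probe, not shown, had a turned mean of 0.36, against -0.30 for the probe shown.

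The 6 core elongation genes had intervals within 1.5-fold as deposited, and 5 did when turned, with means as deposited from -0.19 to 0.11. Eef1a1, which delivers charged tRNA to the ribosome, had 0.066 ± 0.165 (SD, n = 5). Eef1a2, the paralogue that replaces it in mature neurons and muscle, had 0.11 ± 0.29 (SD, n = 5), and -0.013 without mouse 3. Its 2 probes had opposite signs, at -0.071 and 0.298 as deposited and -0.297 and 0.362 turned. The turned mean of the gene was 0.032. The transcripts of Eef1a1 and Eef1a2 are alike in sequence. The probe sequences were not analysed here, so signal shared between these genes cannot be told apart. The subunits of the exchange factor of eEF1A gave -0.19 ± 0.18 for Eef1b2, -0.15 ± 0.29 for Eef1d and -0.15 ± 0.18 for Eef1g (SD, n = 5 each). Eef2, which moves the ribosome by 1 codon, had the mouse values 0.11, -0.014, -0.071, -0.005 and 0.071. The Eef2 mean was 0.019 ± 0.072 (SD, n = 5), with a 95% interval from -0.18 to 0.22. These values average 4 probes, whose means as deposited had both signs, from -0.125 to 0.203. The most complete Eef2 probe gave 0.109.

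In the turned ratio, 6 of 7 elongation genes were negative, where 4839 of all 8711 genes were. Eef1g had Cy5 values of -0.029, -0.98, -0.32, -0.73 and -0.95 and Cy3 values of 0.013, 0.38, 0.48, 0.23 and 0.39, for mice 1 to 5. Mouse 1 was close to 0 on both arrays, and the other mice split by the dye. The turned mean of Eef1g was -0.45 ± 0.27 and that of Eef2 was -0.28 ± 0.14 (SD, n = 5 each), with adjusted p of 0.113 and 0.141 by limma. All 4 Eef2 probes were negative when turned, from -0.60 to -0.18. With all 10 arrays in the fit, 6 of 62 member genes passed in the turned ratio, against 10.3% of all genes. They were Eif3i (adjusted p = 0.0184), Eef1g (0.0332), Eif4e2 (0.0332), Eif1a (0.0353), Eef2 (0.041) and Mars2 (0.0457), all by limma. The within-mouse correlation was estimated at -0.0175 there, so this fit treats the 10 arrays of 5 mice as nearly independent. After scaling between arrays 1 member gene passed in the turned ratio, and the share of all genes there is not given here.

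**Figure D3:**
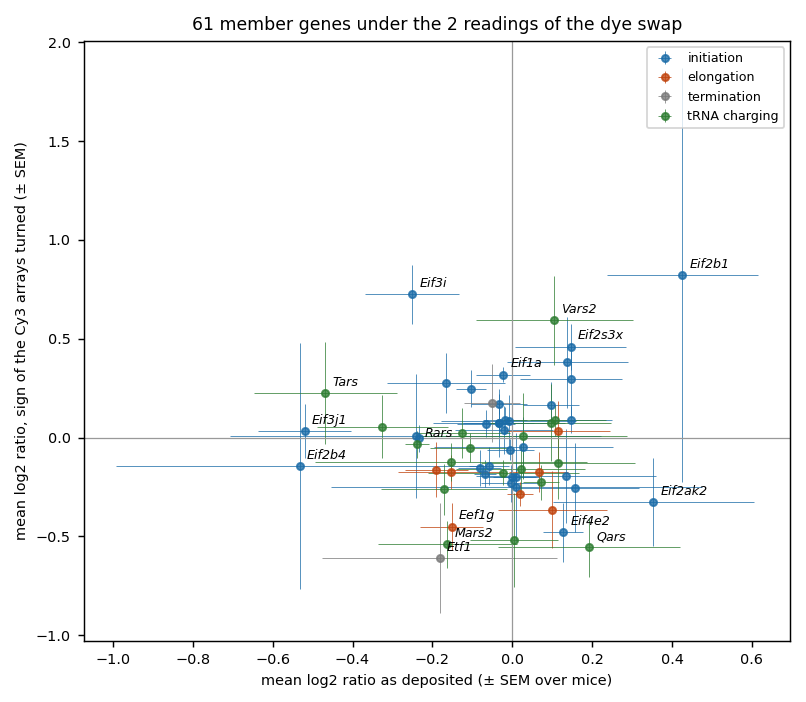
Mean log2 ratio of 61 tested member genes as deposited (x axis) and with the Cy3 sign turned (y axis), each with its SEM over mice; Eif2b3, at -2.32 and 3.17, is left out for its scale. Eif3i lies at 0.72 on the turned axis and -0.25 on the other, Eif3j1 at 0.034 and -0.52, and Eif2b1 at 0.82 and 0.43 with a wide error.

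The release factor genes were both negative as deposited, and neither passed. Etf1 encodes eRF1, which reads stop codons, and had -0.18 ± 0.66 (SD, n = 5). Mouse 5 had -1.29 and the others lay between -0.12 and 0.45, and without mouse 5 the mean was 0.096. Its turned mean was -0.61 ± 0.63 (SD, n = 5), with limma's unadjusted p at 0.0405 and adjusted p at 0.177. Gspt1 encodes the GTPase eRF3a, and had -0.051 ± 0.157 as deposited and 0.18 ± 0.44 turned (SD, n = 5 each), while its 3 tested probes gave -0.40, -0.13 and 0.29.

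Among cytosolic aminoacyl-tRNA synthetases, Rars, for arginine, was below 0 throughout, and the rest lay on both sides of 0. The Rars probe gave -0.24, -0.54, -0.030, -0.26 and -0.29 on the Cy5 arrays of mice 1 to 5. On the Cy3 arrays it gave -0.12, -0.088, -0.41, -0.080 and -0.32. All 10 values were negative, and neither orientation was the lower in every mouse. The mean was -0.24 ± 0.068 (SD, n = 5), with a 95% interval from -0.44 to -0.042, an unadjusted p of 0.0248 and an adjusted p of 0.918 by limma. Leaving out each mouse moved it only between -0.26 and -0.22. Of 74 member probes with 10 values, this was the only one with the same sign on all 10 arrays (1.35%), where 0.214% of the 13572 such probes on the array had it, 29 in all, and 0.0884% were negative on every array. In the turned ratio 5 of the 74 did (6.76%, against 7.47%). The Rars value did not pass the correction over all genes, and its turned mean was -0.034 ± 0.154 (SD, n = 5).

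Tars, the threonyl-tRNA synthetase, had a larger and less even value. Its mouse values were -0.97, -0.35, 0.017, -0.78 and -0.26, with a mean of -0.47 ± 0.40 (SD, n = 5). The unadjusted p by limma was 0.0275 and the adjusted p 0.918. Both Tars probes had negative means, at -0.52 and -0.41, each with 4 mice. The value of mouse 1 came from the first probe only. That of mouse 3 came from the second only, with 1.105 on its Cy5 and -1.071 on its Cy3 array. On the Cy5 arrays the probes had opposite signs in mouse 2 (0.63 and -0.606) and mouse 5 (0.279 and -0.633), and the same sign in mice 1, 3 and 4. Turned, Tars had 0.22 ± 0.58 (SD, n = 5). Hars, the histidyl enzyme, gave -0.33 ± 0.37, with values from -0.69 to 0.11 (SD, n = 5). The glycyl and tyrosyl enzymes, whose genes are mutated in inherited neuropathy, had -0.15 ± 0.68 (Gars, SD, n = 4) and -0.13 ± 0.27 (Yars, SD, n = 5). Gars was -1.17 in mouse 1 and between 0.10 and 0.32 in the other 3 mice measured. Kars, Mars1 and Nars, for lysine, methionine and asparagine, had means of 0.026, 0.021 and 0.004 as deposited. Turned, Kars had 0.008 and Mars1 -0.16. Nars was negative in 5 of 5 mice when turned, at -0.52 ± 0.53 (SD, n = 5), with limma's unadjusted p at 0.0446 and adjusted p at 0.184. Qars, the glutaminyl enzyme, had 0.19 ± 0.51 as deposited and -0.56 ± 0.34 turned (SD, n = 5 each), with an adjusted p of 0.109 by limma for the latter.

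Mitochondrial synthetases had means between -0.16 and 0.11 as deposited, with all 5 tested bounded within 1.5-fold. The turned ratio had 3 of the 5 within 1.5-fold and 4 within 2-fold. The largest turned values were those of Vars2 (0.59 ± 0.50) and Mars2 (-0.54 ± 0.27, SD, n = 5 each), which had opposite signs and adjusted p of 0.141 and 0.103 by limma. Iars2, the mitochondrial isoleucyl enzyme, had 6 probes, with means from -0.28 to 0.078 and a gene mean of -0.11 ± 0.22 (SD, n = 5). Fars2 had 0.096 ± 0.339 (SD, n = 5).

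Some cytosolic synthetase genes share a promoter feature that the choice of genes did not use. The transcription factor ATF4, made when eIF2 kinases are active, binds the C/EBP-ATF response element TGATGNAAN, and this link between members is the reason these sequences are shown. The element was searched on both strands in RefSeq promoters of GRCm38.p6, 250 bases before to 50 after the start of each gene. It stood in 5 of 9 cytosolic synthetase genes in that table, 0 of 6 mitochondrial synthetase genes and 1 of 27 initiation genes. It was found in 4.5% of the 27025 genes of the table and in 2.93% of 8012 genes of the array. The sequences of 5 of these member genes follow, on the strand of the gene, with the element in capitals, which reads TGATGNAAN on the opposite strand except in Yars.
Gars (chr6:55037960-55037988, plus strand): tggctgcgctATTTCATCAtgcaccgggc
Iars (chr13:49682126-49682154, plus strand): cactgtcagtATTGCATCAcctccagacg
Tars (chr15:11399656-11399684, minus strand): caggagtcccGTTGCATCAgctggttagc
Yars (chr4:129189896-129189924, plus strand): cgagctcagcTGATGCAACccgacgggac
Eif2s3x (chrX:94212730-94212758, minus strand): ttcgccatcaTTTTCATCAggtctatgcc
The elements of Gars and Tars began 31 and 16 bases before the start site, and those of Yars and Iars 4 and 7 bases after it. A match is a description of letters and not a measured binding site. The 4 tested synthetase genes with the element had means of -0.47 (Tars), -0.15 (Gars), -0.13 (Yars) and 0.11 (Iars) as deposited. The 4 tested without it in the table, Kars, Mars1, Qars and Sars, lay between 0.021 and 0.19. The ranges overlapped, and the order of the medians depended on the reading. With the element the median was -0.14 as deposited and -0.050 turned, and without it 0.048 and -0.19. Atf4 itself had 0.10 ± 0.31 as deposited and -0.42 ± 0.22 turned (SD, n = 5 each), where it was negative in 5 of 5 mice with limma's adjusted p at 0.11. Its target Chac1 had -0.18 ± 0.465 as deposited and 0.50 ± 0.395 turned (SD, n = 5 each). Turned, Chac1 was positive in 5 of 5 mice with an adjusted p of 0.136 by limma. Ddit3 and Trib3, listed with these among other genes of translation, were each negative in 4 of 5 mice when turned, as Atf4 was in 5 of 5. They had -0.106 ± 0.285 and -0.048 ± 0.257 as deposited, and -0.235 ± 0.23 and -0.156 ± 0.207 turned (SD, n = 5 each). Ppp1r15a, of the same list, had -0.608 ± 2.301 as deposited and 0.712 ± 2.058 turned (SD, n = 5 each). Turned, it was positive in 3 mice and negative in 2. Asns and Sesn2, also listed, could not be tested.

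**Figure D4:**
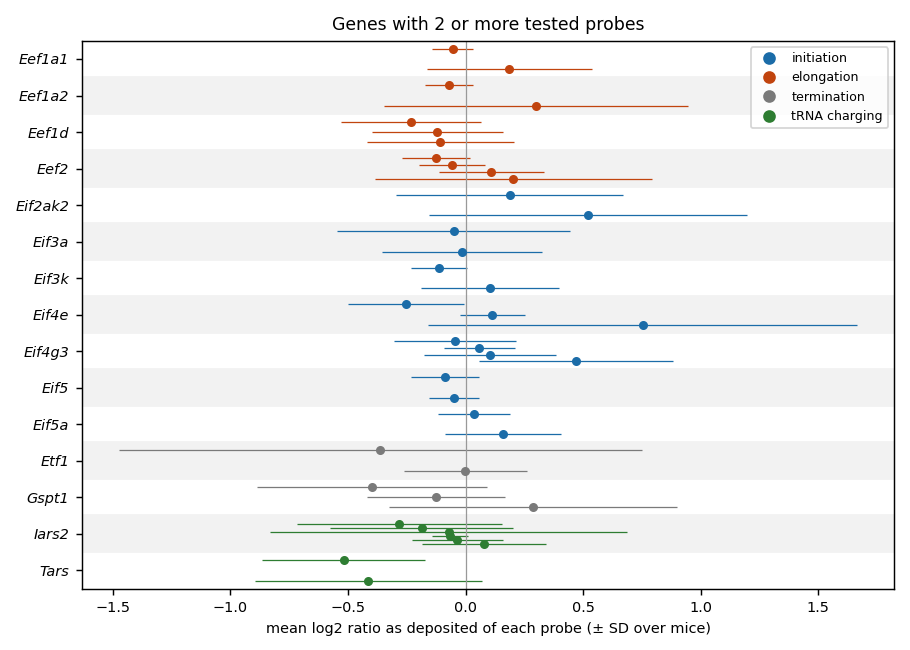
Mean log2 ratio as deposited of each tested probe for the 15 member genes with 2 or more, with the SD over mice. Both Tars probes and all 3 Eef1d probes are negative, while the probes of Eif4e spread from -0.25 to 0.75.

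Probes of the same gene often differed. Over the 15 member genes with 2 or more tested probes, 41 probes in all, the distance between the highest and lowest probe mean had a median of 0.328 as deposited. The probes had the same sign throughout in 7 genes as deposited and in 4 turned. The genes with 1 sign as deposited were Eef1d, Eif2ak2, Eif3a, Eif5, Eif5a, Etf1 and Tars. The Etf1 probes gave -0.363 and -0.001, the latter next to 0. Rars and Eif3j1 had 1 probe each, so no other probe bears on their values.

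The 5 genes that were not tested had too few arrays. Aars, the alanyl enzyme, had 8 values between -0.72 and 2.09. Wars, the tryptophanyl enzyme, had 6 values between -0.60 and 4.39. Tars2 had 6, of which 2 were capped ratios on Cy3 arrays, and the other 4 lay between 1.33 and 1.80. Eef1akmt1, a methyltransferase of eEF1A, had 7 values between -1.18 and 3.04. The 2 probes of Eif3l had 5 and 6 values.

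Among other genes of translation, which include kinases, scaffolds and mitochondrial factors, none passed either. Of 43 tested, 18 were positive and 25 negative as deposited, with a median of -0.032, and 0 had an adjusted p under 0.05 by limma. Mknk1, the kinase that phosphorylates eIF4E, was the only one with an unadjusted p under 0.05. It gave -1.29 ± 0.65 (SD, n = 4), with limma's adjusted p at 0.918. Mtif3, a mitochondrial initiation factor, had 0.35 ± 0.39, Aimp1, a scaffold of the synthetase complex, had -0.25 ± 0.34, and Gigyf2, a partner of Eif4e2, had -0.15 ± 0.12 (SD, n = 5 each). When turned, 21 lay above 0 and 22 below, the median was -0.095, and 15 of 43 had an unadjusted p under 0.05, against the 26.2% of all genes, and 0 passed. Marker lists of cell types were small, and 0 markers had an adjusted p under 0.05 by limma. The choroid plexus markers measured, 2 of 5, were both negative, with medians of -0.34 as deposited and -0.25 turned. As deposited, both had an unadjusted p under 0.05 by limma, against 3.52% of all genes. So did 1 kidney marker, Napsa at 0.89, and 1 oligodendrocyte marker, Cnp at 0.27, each positive in 5 of 5 mice. In the turned ratio 1 astrocyte, 1 oligodendrocyte and 1 microglia marker did, against 26.2% of all genes. The kidney markers measured, 5 of 7, lay above 0 in 3 cases and below in 2 as deposited. Their median was 0.22 as deposited and -0.19 turned. Microglia markers, 2 of 5, were both negative in either ratio, with medians of -0.16 and -0.30. Astrocyte markers, 2 of 4, had -0.13 and -0.17, and oligodendrocyte markers, 2 of 4, had 0.16 and -0.17. Neuron markers, 3 of 5, had 0.074 and 0.041, and endothelial markers, 2 of 3, had -0.059 and 0.12. Their part in the members' values was not tested.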

How the data were processed

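Per the labels, RNA of each mouse and of the pool was reverse transcribed and labelled indirectly with Cy3 or Cy5. The authors deposited log2 ratios for 20355 probes on 10 arrays. The sources used here do not give the scanner, background correction or normalization. Symbols came from the platform annotation, and all 100 member probes had the same symbol in the RefSeq table of GRCm38.p6 by Entrez identifier. Each array was centred on its median, and both arrays from 1 mouse were then averaged, with the Cy3 sign as deposited or turned. A probe needed both arrays in at least 4 mice. Tested probes of a gene were averaged. Limma 3.58.1 (lmFit, eBayes) under R 4.3.3 compared the mouse values with 0, over all genes, with Benjamini-Hochberg adjustment at 0.05. Intervals are moderated 95% intervals of limma. The mouse was the replicate. The code was tested on simulated data. The members and lists were chosen with earlier results of these data known, so lists are described by counts and medians and not tested. Named genes were, in each subgroup, the 3 with the smallest p as deposited and the 2 turned, a fixed list of central factors, genes with 2 or more probes, and 4 other genes of translation. Further genes are named from counts of 5 or fewer or as members of a described group, chosen after their values were seen. Of the alternatives, no centring, scaling, capped ratios missing, all 10 arrays, single orientations, other filters, the most complete probe and leaving out each mouse were run. A set of 9 motifs were searched in the promoters. The promoter sequence of 1 member gene with the element is not reported here.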

Additional observations from a re-analysis of the deposited data

Results flagged for a closer look

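For 9 of the 62 tested member genes the ratio as deposited in 1 mouse lay far from the other mice, by Dixon's 95% limit on the gap to the nearest mouse. Chance flags about 1 in 20 groups. Mouse 3 was the distant mouse in 6 of the 9: Eif2ak2 (1.343, nearest 0.26), Vars2 (0.884, nearest 0.003), Eif2a (0.624, nearest -0.129), Vars (0.61, nearest 0.043), Eif2b2 (-0.748, nearest -0.094) and Eef1d (-0.655, nearest -0.124). The others were Eif2b3 in mouse 4 (-8.002, nearest -1.162), Eif6 in mouse 5 (0.787, nearest 0.106) and Gars in mouse 1 (-1.167, nearest 0.1). The interquartile range of the members' ratios was 0.644 in mouse 3 and 0.232 to 0.318 in the other mice, and over all genes it was 0.738 in mouse 3. The Cy3 array of mouse 3 had the widest spread of the 10 arrays, and its part in these values was not tested.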

How the results depend on the processing

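No member gene passed as deposited by limma under any alternative run. The count at an unadjusted p under 0.05 was 3 in the main run, against 3.52% of all genes. It was 11 with the Cy3 sign turned, against 26.2%. It was 12 with the mutant in Cy5 only, 7 with it in Cy3 only and 1 with both arrays of all 5 mice required. Without each mouse in turn it was 1 to 4. With the sign turned, the count past the threshold (0) was 1 after scaling between arrays. It was 6 with all 10 arrays, against 10.3% of all genes, and there 18 had an unadjusted p under 0.05 instead of 11. Where no share of all genes is printed it is not given here, so those counts are not read as a trait of the members. With Cy5 arrays only the medians were -0.095 over all members, -0.329 for elongation and -0.148 for synthetase genes. With Cy3 arrays only they were -0.106 for initiation, 0.269 for elongation and 0.090 for synthetase genes. Turned, elongation gave -0.176 and synthetases -0.087. The most complete probe of each gene gave -0.071 for elongation. The cause was not tested. Of 50 named genes, 26 had the opposite sign when turned, 9 without mouse 3 and 1 without centring. Leaving out 1 mouse moved 40 of them by over 1.5 times at least once. Leaving out a mouse required 3 of the remaining 4. Mutant and wildtype mice could not be paired, because there is 1 group and the wildtype RNA came as 1 pool. Signal over background was not analysed here.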

Other observations

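Further motifs were searched on both strands of the promoters, in the 48 member genes and 8012 array genes of the table. The E-box CACGTG stood in 12 member genes (25%), against 11.33% of array genes. The ETS core CTTCCG stood in 27 (56.25%), against 31.19%. The CCAAT box CCAAT stood in 22 (45.83%), against 42.79%, and the GC box GGGCGG in 35 (72.92%), against 64.38%. The TATA box TATAAA stood in 4 (8.33%), against 9.84%, and the cAMP response element TGACGTCA in 1 (2.08%), against 3.23%. The NRF1 core GCGCATGC stood in 4 (8.33%), against 5.18%, and ACTACA, a part of the SBS motif, in 8 (16.67%), against 11.51%. No ratio was tested against these motifs.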
